A study of Mus musculus with 10 samples.

Results

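The Notch genes examined here were 4 receptors (Notch1, Notch2, Notch3 and Notch4), 4 ligands (Jag1, Jag2, Dll1 and Dll4) and 2 transcriptional targets (Hes1 and Hey1), measured by RNA-seq in osteocyte preparations of mice with and without myeloma. The 10 genes were chosen by symbol from the 22548 genes of the deposited table, with earlier results of these data known. All 10 passed the filter on low counts, as did 16186 genes in all. Both groups were male C57BL/6 mice of 8 weeks. The 5 MM mice were injected into the femur with Vk12598 cells, a transplantable mouse myeloma line, and the 5 No MM mice received no myeloma cells. The paper's methods describe control mice as injected with PBS, and its osteocytes were isolated weeks after the injection. Each mouse gave 1 library of total RNA. The MM mice therefore carry 1 injected line, and the RNA came from cell pellets of digested bone pieces rather than from sorted osteocytes.

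Notch receptors are membrane proteins that are activated by ligands of the Jagged and Delta-like families on a neighboring cell. Ligand binding lets ADAM10 and then gamma-secretase cut the receptor, and the freed intracellular part enters the nucleus, where it joins RBPJ and Mastermind proteins and turns on repressors of the Hes and Hey families. In bone, Notch signaling is known to restrain osteoblast differentiation and to act in osteocytes, and myeloma cells can engage it by contact. Notch4 and Dll4 are best known from endothelium, and Notch3 from the mural cells of vessels.

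The libraries held 31099174 to 39466332 counts. Those of No MM 3 and No MM 4 stood apart: immunoglobulin genes took 26.6% and 28.97% of their counts, against 0.637% to 3.86% in the other 8, and results are therefore given with and without them. The summed level of the 7 plasma cell markers found in the table was 3915 and 3760 CPM, that is reads scaled to the library size, in these libraries, 364 to 646 CPM in the other No MM libraries and 339 to 407 CPM in MM. Their 9 osteoblast markers summed to 4139 and 2911 CPM, against 25992 to 44440 CPM in the other No MM libraries and 14409 to 50642 CPM in MM. Neutrophil (7177 and 8248 CPM), stromal (367 and 482 CPM), osteoclast (1025 and 824 CPM), erythroid (945 and 3205 CPM) and megakaryocyte sums (131 and 361 CPM) were also below those of the other 8 libraries. The osteocyte markers Sost and Dmp1 were present in every library, at 68.2 to 994 CPM and 112 to 884 CPM. Endothelial Pecam1 (86.8 to 163.8 CPM) and Cdh5 (36.3 to 141.7 CPM) were present in every library as well. None of the markers listed for 13 cell types was at 0 in every library.

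Promoter sequence is shown for Notch1 and Notch2, the receptors for which No MM 1, 3 and 4 were the lowest of the 10 libraries. RefSeq promoters of GRCm38.p6 were found for 8 of the 10 genes, in 9 entries since Dll1 has more than 1 start. The 250 bases before the start are printed 5′ to 3′ on the gene's strand, with capitals for the GC box GGGCGG or its reverse complement CCGCCC. The Notch1 stretch is on the minus strand at chr2:26503823-26504072, inside the gene's deposited span, and the Notch2 stretch is on the plus strand at chr3:98013288-98013537, just before it.
Notch1: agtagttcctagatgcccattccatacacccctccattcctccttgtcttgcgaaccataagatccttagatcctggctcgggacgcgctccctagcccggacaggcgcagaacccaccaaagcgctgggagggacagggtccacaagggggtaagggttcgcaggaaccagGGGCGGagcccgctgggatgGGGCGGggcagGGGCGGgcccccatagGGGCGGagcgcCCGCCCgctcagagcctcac
Notch2: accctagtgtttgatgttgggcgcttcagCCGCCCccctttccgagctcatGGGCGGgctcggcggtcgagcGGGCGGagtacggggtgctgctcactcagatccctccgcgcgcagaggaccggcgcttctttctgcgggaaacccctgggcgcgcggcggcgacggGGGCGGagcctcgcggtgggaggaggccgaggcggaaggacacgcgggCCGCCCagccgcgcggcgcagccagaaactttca
Each of the stretches held 5 GC boxes, and 5 of the 9 promoters held at least 1, against 32.7% of 32851 mouse promoters of this length. The core motif of RBPJ, TGGGAA, was in 0 of the 9 on either strand, against 21.6% of all promoters. These matches describe letters only.

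Per length of gene, Hes1 and Notch2 were the most abundant of the 10 and Dll1 the least. Over the 10 libraries, the level in CPM per kb was 10.2 ± 2.05 for Hes1 (SD, n = 10), 9.58 ± 3.30 for Notch2, 6.10 ± 1.37 for Notch1, 4.63 ± 1.46 for Notch3 and 3.87 ± 1.13 for Hey1. It was 3.30 ± 1.26 for Dll4, 3.02 ± 1.12 for Notch4, 2.71 ± 0.835 for Jag1, 2.53 ± 0.823 for Jag2 and 1.26 ± 0.357 for Dll1. The steps from Notch2 to Notch1 and from Notch1 to Notch3 were seen in 9 of 10 libraries, and the step from Jag2 to Dll1 in 10 of 10. Elsewhere neighbors in this order were not separated: Hes1 exceeded Notch2 in 6 libraries, Hey1 exceeded Dll4 in 6, Notch4 exceeded Jag1 in 5 and Jag1 exceeded Jag2 in 5. The order of some genes differed between the groups. Hes1 was above Notch2 in No MM (11.0 ± 1.38 and 7.34 ± 3.35 CPM per kb, SD, n = 5) and below it in MM (9.41 ± 2.45 and 11.8 ± 0.904), and Dll4 was above Jag1 in No MM (3.85 ± 1.19 and 2.41 ± 0.808) and below it in MM (2.74 ± 1.17 and 3.02 ± 0.828). Of all tested genes, 61.1% had a lower mean level per kb than Hes1 and 20.4% had a lower one than Dll1. Raw counts ran from 89 for Dll1 to 5786 for Notch2 in a single library, so the 10 genes were well above the 3 counts taken as the smallest detectable number.

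MM was compared with No MM to ask whether Notch genes differ in osteocyte preparations of tumor-bearing bone. At an adjusted p under 0.05 (edgeR, Benjamini-Hochberg), 0 of the 10 were called, as were 0% of the 16186 genes. One of the 10, Notch2, had an unadjusted p under 0.05 and was higher in MM, where 3.81% of all genes were called higher and 10.3% lower (617 and 1664 genes). Without No MM 3 and No MM 4, 0 of the 10 had an unadjusted p under 0.05, against 5.89% of 16600 genes. DESeq2 called 0 of the 10 at an adjusted p under 0.05, against 1.17% of 17638 genes. The groups overlapped for all 10 genes, whereas they did not overlap for 1.41% of all genes. The median log2 fold change was -0.11 over the 10 genes and -0.03 over all tested genes, with 4 of the 10 above 0 and 6 below.

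Notch2, at chr3:98013538-98150367 on the plus strand, was the receptor with the widest gap between the groups. Its level was 71.1, 104, 48.3, 40.4 and 122 CPM in No MM 1 to 5 and 115, 119.7, 137, 118 and 132 CPM in MM 6 to 10. The MM libraries lay close together and near No MM 2 and No MM 5, while No MM 3 and No MM 4 were the lowest of the 10, and the groups overlapped through No MM 5. The means were 77.1 ± 35.2 CPM in No MM and 124 ± 9.49 CPM in MM (SD, n = 5). The log2 fold change was 0.69 (SE 0.28, unadjusted p = 0.034, adjusted p = 0.332 by edgeR with Benjamini-Hochberg adjustment). An exact permutation test, two-sided, gave p = 0.0317, or 0.438 after adjustment over all tested genes, where 0.00794 is the smallest p that 5 mice against 5 allow. Without No MM 3 and No MM 4 the No MM mean was 99.01 ± 25.8 CPM and the log2 fold change 0.31 (SE 0.18, unadjusted p = 0.118, adjusted p = 0.643 by edgeR). Leaving out 1 library at a time gave 0.52 to 0.91, and the unadjusted call was lost without any 1 of No MM 1, No MM 3, No MM 4, MM 7, MM 8 or MM 10. No MM 3 and No MM 4, the lowest in Notch2, had the high plasma cell and low osteoblast marker sums given above. No MM 1, the next lowest, did not, with an osteoblast sum of 41384 CPM and a plasma cell sum of 646 CPM. The part of these cell types in the Notch2 difference was not tested. In bulk samples, fewer cells of a type and less RNA per cell cannot be told apart.

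Notch1, at chr2:26457903-26516663 on the minus strand, was low in the same No MM libraries as Notch2. Its level was 43.3, 56.3, 42.4, 42.2 and 68.5 CPM in No MM 1 to 5 and 57.2, 75.6, 51.7, 67.8 and 74.0 CPM in MM 6 to 10. No MM 1, 3 and 4 were the lowest of the 10, and No MM 5 exceeded 3 of the MM libraries. The means were 50.5 ± 11.7 and 65.3 ± 10.5 CPM (SD, n = 5), with a log2 fold change of 0.37 (SE 0.18, unadjusted p = 0.0688, adjusted p = 0.387, edgeR). This was 0.20 without No MM 3 and No MM 4 (SE 0.19, adjusted p = 0.714, edgeR). Leaving out No MM 5 gave Notch1 an unadjusted p of 0.0135 and a log2 fold change of 0.50, and leaving out MM 8 gave an unadjusted p of 0.0422 and 0.44, neither of which passed adjustment (0.127 and 0.467, edgeR). Over all genes, 1276 of 16353 were higher at an unadjusted p under 0.05 without No MM 5 (edgeR). The number was 370 of 16422 without MM 8 and 617 of 16186 with all 10 libraries.

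**Figure D1:**
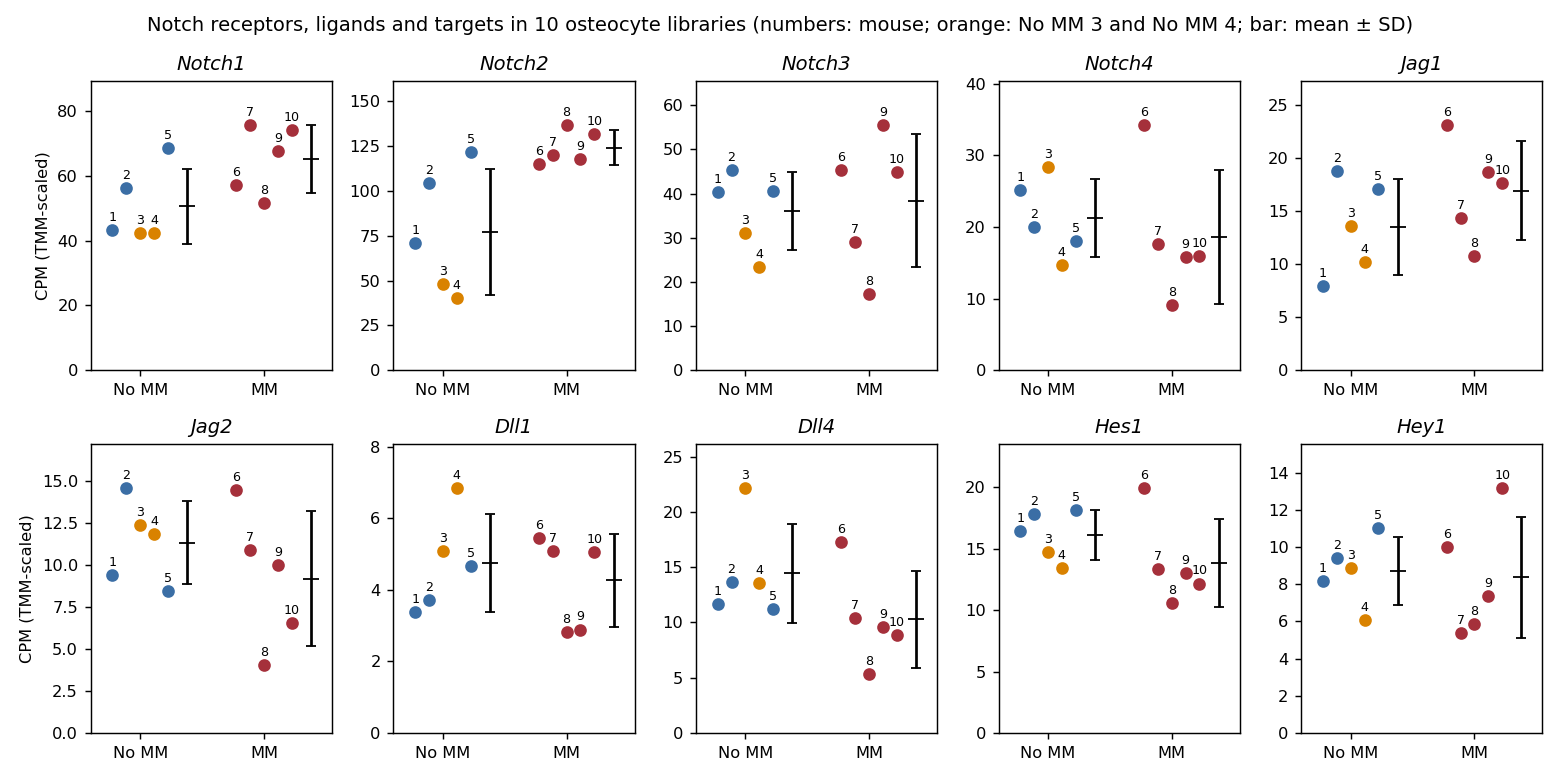
Level of each Notch gene (y axis, TMM-scaled CPM from 0) in the 5 No MM and 5 MM libraries (x axis). Points are single mice with their numbers, orange points are No MM 3 and No MM 4, and bars show the mean ± SD. Notch2 sits between 115 and 137 CPM in MM and between 40.4 and 122 CPM in No MM, and MM 8 is the lowest of the 10 libraries for 6 of the genes.

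Notch3 and Notch4 did not share this order over the 10 libraries. Within No MM alone, Notch3 was also lowest in No MM 4, 3 and 1, though No MM 1 was close to No MM 5. Notch3, at chr17:32120820-32166880 on the minus strand, was at 40.3, 45.3, 31.1, 23.4 and 40.5 CPM in No MM 1 to 5 and 45.4, 29.0, 17.3, 55.5 and 44.8 CPM in MM 6 to 10. The MM libraries held both the highest value, in MM 9, and the lowest, in MM 8. The log2 fold change was 0.09 (SE 0.30, adjusted p = 0.910, edgeR), and -0.15 without No MM 3 and No MM 4. Notch4, at chr17:34564268-34588503 on the plus strand, was at 25.1, 20.1, 28.3, 14.8 and 18.0 CPM in No MM and 34.2, 17.6, 9.16, 15.8 and 15.99 CPM in MM. MM 6 was the highest and MM 8 the lowest of the 10, a range of 3.74 times within 1 group. The log2 fold change was -0.20 (SE 0.32, adjusted p = 0.801, edgeR).

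Among the ligands, the fitted change was above 0 for Jag1 and below 0 for Jag2, Dll1 and Dll4, and none passed the test. Jag1, a Jagged ligand at chr2:137081456-137116644 on the minus strand, was at 7.92, 18.8, 13.6, 10.2 and 17.1 CPM in No MM 1 to 5 and 23.1, 14.4, 10.8, 18.7 and 17.7 CPM in MM 6 to 10. Its log2 fold change was 0.32 (SE 0.28, adjusted p = 0.611, edgeR), and all MM libraries but MM 6 lay inside the No MM range. Jag2, the other Jagged ligand, at chr12:112908590-112929495 on the minus strand, was at 9.40, 14.6, 12.4, 11.8 and 8.42 CPM in No MM and 14.5, 10.9, 4.04, 9.997 and 6.53 CPM in MM. Here MM 8 and MM 10 lay below all No MM libraries, and the log2 fold change was -0.30 (SE 0.33, adjusted p = 0.684, edgeR).

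Dll4, the Delta-like ligand of sprouting vessels, at chr2:119325784-119335962 on the plus strand, was at 11.7, 13.6, 22.2, 13.5 and 11.2 CPM in No MM 1 to 5 and 17.3, 10.4, 5.29, 9.56 and 8.84 CPM in MM 6 to 10. All MM libraries but MM 6 lay below all No MM libraries. The log2 fold change was -0.49 (SE 0.32, unadjusted p = 0.148, adjusted p = 0.483, edgeR), and -0.26 without No MM 3 and No MM 4 (SE 0.33, adjusted p = 0.780, edgeR). Without MM 6, the log2 fold change of Dll4 was -0.76 with an unadjusted p of 0.0239 and an adjusted p of 0.304 (edgeR). In that fit 1740 of 16364 genes were lower at an unadjusted p under 0.05. Dll1, a Delta-like ligand at chr17:15367354-15376872 on the minus strand, had the lowest counts of the 10. It was at 3.39, 3.71, 5.10, 6.85 and 4.68 CPM in No MM and 5.45, 5.08, 2.83, 2.89 and 5.07 CPM in MM, with No MM 4 highest. Its log2 fold change was -0.15 (SE 0.31, adjusted p = 0.839, edgeR), and 0.10 without No MM 3 and No MM 4.

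Genes on the opposite strand overlap 5 of the 10 Notch genes in GENCODE M21, and 4 of the 10 have such a partner in the count table. The library kit keeps strand, but the sources do not state whether reads were counted by strand, and if they were not, reads of such a pair cannot be told apart. Gm14207 shares 214 exon bases with Dll4 and was at 4.23 and 12.9 CPM in No MM 3 and No MM 4, against 0.425 to 1.64 CPM in the other 8 libraries. The genes opposite Notch1, Notch3 and Dll1 averaged 0.767 CPM or less.

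Both targets, Hes1 and Hey1, encode basic helix-loop-helix repressors. Hes1, at chr16:30064384-30067796 on the plus strand, was at 16.4, 17.8, 14.7, 13.4 and 18.2 CPM in No MM 1 to 5 and 20.0, 13.4, 10.6, 13.03 and 12.2 CPM in MM 6 to 10. MM 6 was the highest of the 10, and the other MM libraries lay below the lowest No MM library. MM 7, at 13.37 CPM, was only just below No MM 4, at 13.42 CPM. The means were 16.1 ± 2.03 and 13.8 ± 3.60 CPM (SD, n = 5), with a log2 fold change of -0.22 (SE 0.20, adjusted p = 0.628, edgeR). It was -0.36 without No MM 3 and No MM 4 (SE 0.22, unadjusted p = 0.138, adjusted p = 0.643, edgeR), and without MM 6 it was -0.39 with an unadjusted p of 0.0497 and an adjusted p of 0.315 (edgeR). Without MM 6, 1740 of 16364 genes were lower at an unadjusted p under 0.05 (edgeR). Hey1, at chr3:8663362-8667039 on the minus strand, was at 8.14, 9.42, 8.88, 6.06 and 11.0 CPM in No MM and 10.005, 5.37, 5.88, 7.38 and 13.2 CPM in MM. Its lowest and highest values were both in MM, and the log2 fold change was -0.06 (SE 0.29, adjusted p = 0.942, edgeR). Both targets thus had a fitted change below 0, with groups that overlapped.

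**Figure D2:**
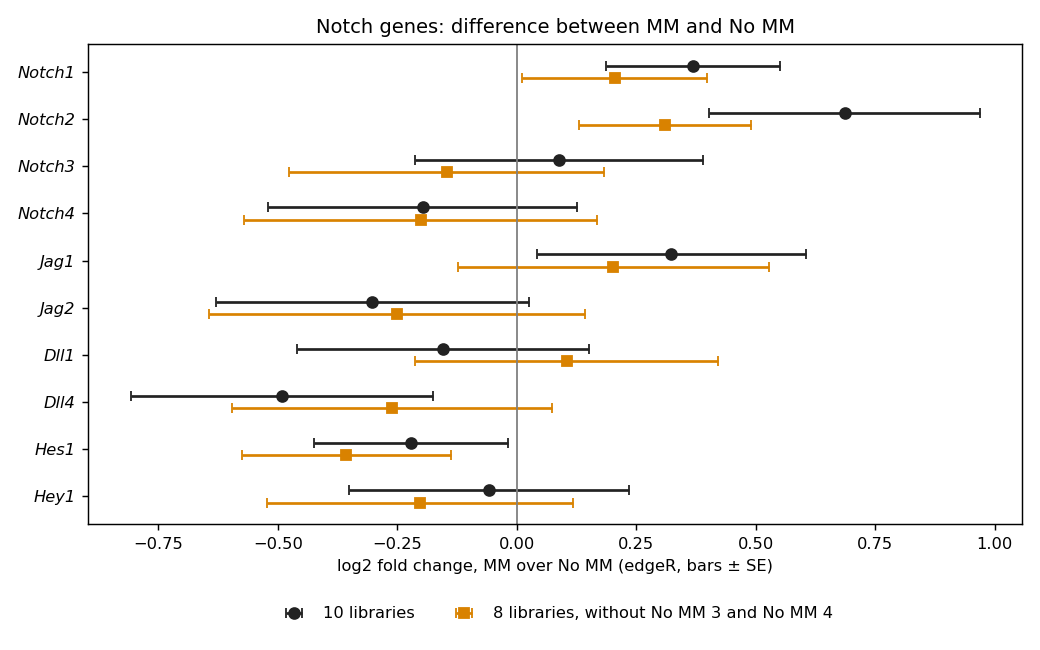
Log2 fold change of each Notch gene, MM over No MM (x axis, edgeR, bars ± SE), over 10 libraries (circles) and over the 8 libraries left without No MM 3 and No MM 4 (squares). Notch2 moves from 0.69 to 0.31, and Notch3 and Dll1 change sign.

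The make-up of the receptor and ligand families was compared per length of gene, as a description without a test. Notch2 made up 34.6% ± 7.33 of the summed receptor level in No MM and 45.5% ± 7.92 in MM (SD, n = 5). The ranges overlapped, at 26.7% to 43.6% and 39.3% to 59.1%, and without No MM 3 and No MM 4 the No MM share was 39.2% ± 5.13 (n = 3). Notch4 made up 16.6% ± 5.76 in No MM and 10.5% ± 4.79 in MM, while the Notch1 share was 26.6% and 26.2% and the Notch3 share 22.2% and 17.8%. Among the ligands, Jag1 made up 23.2% ± 6.85 in No MM and 33.6% ± 4.73 in MM, and Dll4 36.9% ± 6.25 and 29.2% ± 2.47. The Jag2 share was 27.0% and 23.9%, and the Dll1 share was 12.9% and 13.4%. Without No MM 3 and No MM 4, the No MM shares were 13.9% for Notch4, 26.4% for Jag1 and 34.4% for Dll4, each nearer to MM. Those of Notch1 (24.7%), Notch3 (22.3%), Jag2 (27.6%) and Dll1 (11.6%) were instead further from MM, for Notch3 only slightly. The deposited FPKM values give the same shares by arithmetic, because the library total cancels, so they are no separate check. The receptors summed to 2.03 ± 0.695 times the ligands in No MM and 3.07 ± 0.839 times in MM, with ranges of 1.31 to 2.82 and 2.01 to 4.30 that overlapped. No MM 3 and No MM 4 were the lowest, at 1.34 and 1.31, and without them the No MM ratio was 2.51 ± 0.361 (SD, n = 3).

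**Figure D3:**
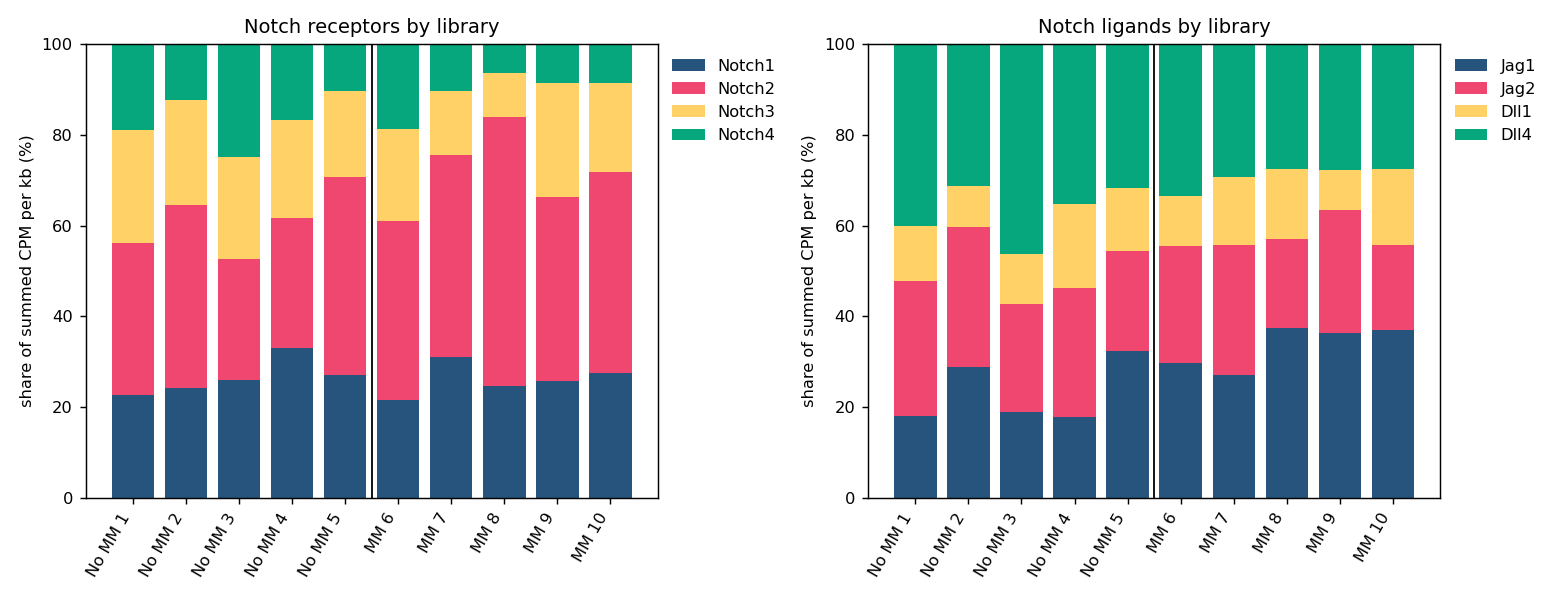
Share of each receptor (left) and each ligand (right) in the summed CPM per kb of its family (y axis, %) in each library (x axis, No MM left of the line and MM right). Notch2 takes 26.7% of the receptors in No MM 3 and 59.1% in MM 8, and Dll4 takes 46.2% of the ligands in No MM 3.

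Much of the spread lay between libraries of the same group. MM 8 had the lowest MM value for 8 of the 10 genes, all but Notch2 and Hey1, and was the lowest of the 10 libraries for 6. MM 6 had the highest MM value for Notch4, Dll1, Dll4, Hes1, Jag1 and Jag2. No MM 4 had the lowest No MM value for 6 genes, namely the 4 receptors, Hes1 and Hey1. Of 13 summed marker lists, 5 were also highest of MM in MM 6 and lowest of MM in MM 8, namely the osteocyte, osteoblast, osteoclast, endothelial and mural cell lists. Neutrophil, erythroid and megakaryocyte sums were instead lowest of MM in MM 6. The 11 endothelial markers summed to 734 CPM in MM 6 and 397 CPM in MM 8, the highest and lowest of MM, and to 405 to 996 CPM in No MM. Among them Cdh5 had its highest MM level in MM 6 (95.2 CPM) and its lowest in MM 8 (36.3 CPM), but Pecam1 was highest in MM 8 (138.9 CPM, against 124.8 CPM in MM 6). The 8 mural cell markers summed to 613 CPM in MM 6 and 169 CPM in MM 8, again the ends of MM, and to 299 to 655 CPM in No MM. The 9 osteocyte markers summed to 1891 CPM in MM 6 and 447 CPM in MM 8, and to 407 to 2619 CPM in No MM. At an unadjusted p under 0.05, 0 of 11 endothelial, 0 of 9 osteocyte, 1 of 8 mural cell and 7 of 7 plasma cell markers were called, each of them lower in MM, as were 10.3% of all genes. The part of these cell types in the Notch values was not tested.

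**Figure D4:**
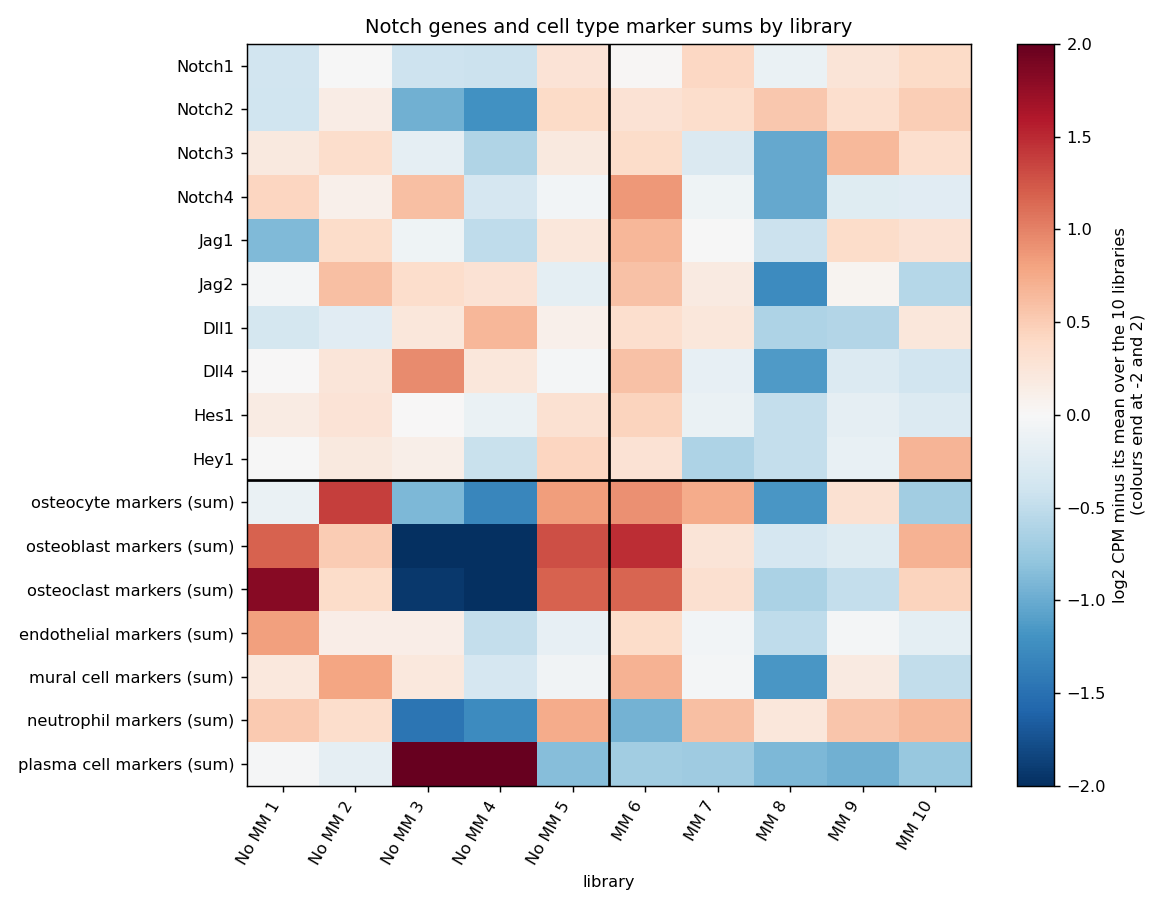
Deviation of each Notch gene and of 7 summed marker lists from its own mean over the 10 libraries (colour, log2 CPM, ending at -2 and 2) for each library (x axis). MM 8 is blue for 9 of the 10 Notch genes and for the bone, endothelial and mural sums, and No MM 3 and No MM 4 are blue for Notch1, Notch2 and the osteoblast sum and red for the plasma cell sum.

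The genes whose log2 CPM followed each Notch gene most closely over the 10 libraries are given as a description. Notch2 was nearest to Zfp518b (Pearson r = 0.991, Spearman rho = 0.952), Zfp516 and Diap2, and Notch1 to Trim12c (r = 0.954, rho = 0.939), Il18r1 and Abcc2. Notch4 was nearest to Flt1 (r = 0.954, rho = 0.915), a VEGF receptor of endothelium, then to Arhgef15 and Gpihbp1. Notch3 was nearest to Il17d (r = 0.938, rho = 0.915), Ldb2 and Dclk3. Among the ligands, Jag1 was nearest to Prss12 (r = 0.967, rho = 0.988), Tdrd9 and Asic3, and Jag2 to Meox2 (r = 0.969, rho = 0.976), Syn2 and the smooth muscle gene Tagln. Dll4 was nearest to Mtmr11 (r = 0.968, rho = 0.952), Tacc2 and 9230110C19Rik, and Dll1 to Esyt3 (r = 0.910, rho = 0.927), Msi1 and Stk36. For the targets the nearest genes were L3hypdh (r = 0.953, rho = 0.927), Ift43 and Ston1 for Hes1, and BC021891 (r = 0.866, rho = 0.879), Matn4 and Sertad4 for Hey1. Over the 8 libraries without No MM 3 and No MM 4, Dclk3 and Matn4 were again among the nearest 3, and the others were replaced, for Notch2 by Ern1 (r = 0.997), Srek1ip1 and Hltf. The points share libraries and 16186 genes were searched.

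Of 66 other Notch pathway genes, 59 passed the filter. The ligands Dll3, Dlk1, Dlk2 and Dner and the targets Hes5, Hes7 and Ptcra did not, with at most 60 counts in any library. None of the 59 passed adjustment. At an unadjusted p under 0.05, 0 of 59 were called higher, against 3.81% of all genes, and 3 of 59 lower, against 10.3%, so the share called was no larger than over all genes. The groups overlapped in all 59, and did not overlap for 1.41% of all genes. The median log2 fold change was 0.004, with 30 genes above 0 and 29 below. By role, 0 of 3 other ligands, 0 of 6 glycosylation genes and 0 of 14 genes of endocytosis and ubiquitination were called. One of 10 protease and secretase genes, 1 of 17 nuclear genes and 1 of 9 other targets were called, each lower in MM.

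Psenen, a subunit of gamma-secretase, was at 75.7, 48.0, 89.7, 83.4 and 37.7 CPM in No MM 1 to 5 and at 35.1 to 46.9 CPM in MM. It was high in No MM 1, 3 and 4 and in no MM library, with a log2 fold change of -0.72 (SE 0.24, unadjusted p = 0.0113, adjusted p = 0.315, edgeR). Snw1, a nuclear cofactor that also acts in splicing, was at 101 to 158 CPM in No MM and 90.6 to 109.9 CPM in MM, with a log2 fold change of -0.41 (SE 0.16, unadjusted p = 0.0269, adjusted p = 0.317, edgeR). Hey2, a sister gene of Hey1, was at 5.23 and 6.09 CPM in No MM 3 and No MM 4, 1.84 to 3.09 CPM in the other No MM libraries and 0.661 to 2.46 CPM in MM. Its log2 fold change was -1.08 (SE 0.46, unadjusted p = 0.0384, adjusted p = 0.336, edgeR), and -0.42 without those libraries. Without them Psenen was at -0.43 (unadjusted p = 0.0898) and Snw1 at -0.34 (unadjusted p = 0.0894, edgeR), and none of the 3 was called.

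Other genes of the pathway that were to be named whatever their values also missed the test. Rbpj, the DNA-binding partner of the receptors, was at 42.5 ± 3.46 CPM in No MM and 48.5 ± 4.27 CPM in MM (SD, n = 5), with a log2 fold change of 0.19 (adjusted p = 0.486, edgeR). Adam10, the protease of the first cut, had a log2 fold change of 0.14, and the target genes Heyl and Nrarp had -0.26 and -0.09. Lfng, a glycosyltransferase that alters the ligand preference of the receptors, was at 17.7 and 17.4 CPM in No MM 3 and No MM 4 and at 42.9 to 58.3 CPM in the other No MM libraries. Its log2 fold change was 0.52 (SE 0.34, adjusted p = 0.491, edgeR), and 0.06 without those libraries.

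**Figure D5:**
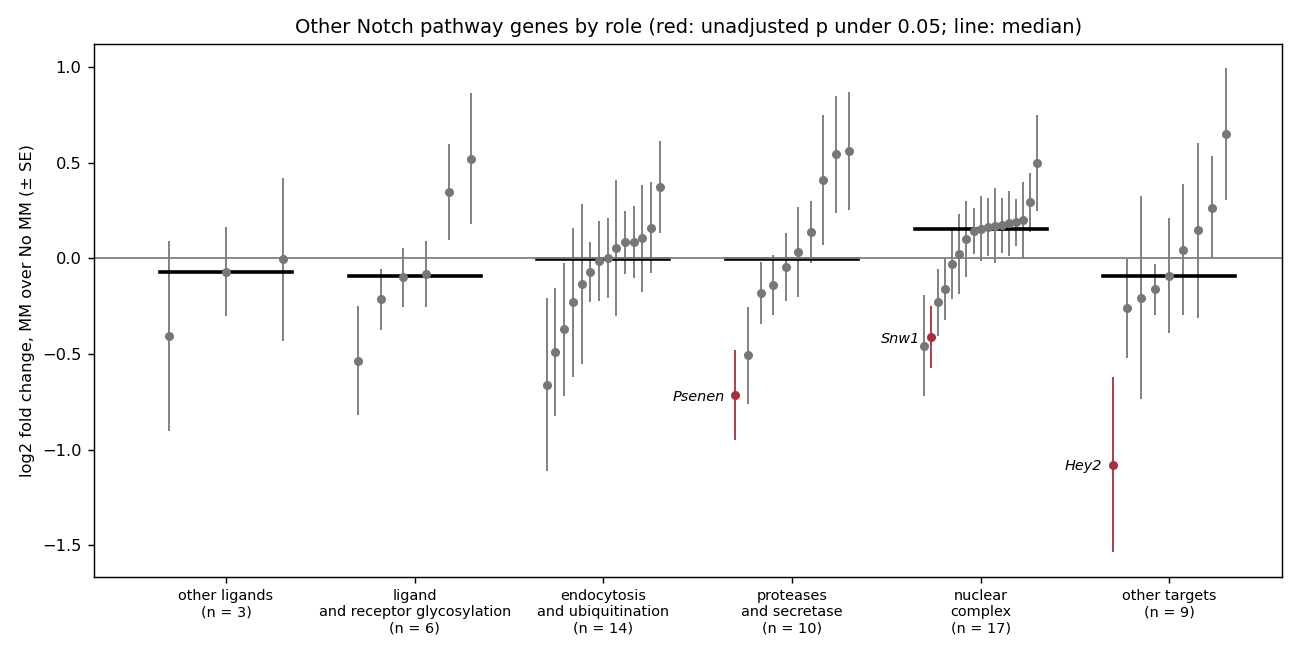
Log2 fold change, MM over No MM (y axis, edgeR, bars ± SE), of the 59 other Notch pathway genes tested, grouped by role (x axis). Red points have an unadjusted p under 0.05 and black lines are medians. The 3 red points, Psenen, Snw1 and Hey2, lie below 0, and the medians lie near 0.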

How the data were processed

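RNA-seq libraries of 5 No MM and 5 MM mice, 1 per mouse, were compared. The authors deposited whole-number read counts for 22548 genes, a normalized signal (counts divided by 1 size factor per library), FPKM values, gene lengths, and results of their comparison (log2 fold changes, p-values and adjusted p-values), which were not used. The submitters' processing notes name FastQC 0.11.5 and STAR. The counting program, strand setting, genome build and annotation are not given in the sources used here. Gene positions are as deposited, and 68.4% of the 22284 identifiers found in GENCODE M21 (GRCm38) had the same position.

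Counts were filtered with filterByExpr, scaled by TMM and tested with the quasi-likelihood test of edgeR 4.0.16 (R 4.3.3) over 16186 genes, with Benjamini-Hochberg adjustment at 0.05. Log2 CPM used a prior count of 2. The exact permutation test was two-sided over all ways to assign 10 mice to groups of 5. Levels between genes were set side by side as CPM per kb of deposited gene length. Shares of counts carry 95% Wilson intervals, which like the limit of 3 counts cover counting error only. For immunoglobulin genes these were 26.55% to 26.57% in No MM 3 and 28.96% to 28.99% in No MM 4. The alternatives were DESeq2 1.42.0, RLE and upper-quartile factors, no filter, at least 10 counts in every library, and immunoglobulin genes left out. Others were No MM 3 and No MM 4 left out, 1 surrogate variable (sva 3.50.0), a 2-fold threshold and linear CPM in the permutation test. Each mouse was also left out in turn. Shares were formed from FPKM as well, which equal those from CPM per kb by arithmetic. Shares, the receptor to ligand ratio and nearest genes without No MM 3 and No MM 4 were chosen after seeing the data. The scripts were tested on simulated data.

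The 10 Notch genes, the pathway lists and the marker lists were chosen with earlier results of these data known. The named genes were the 10, the 5 other pathway genes with the smallest unadjusted p under 0.05 in each direction, Rbpj, Heyl, Nrarp, Lfng, Adam10, the 3 nearest genes of each Notch gene, and the markers Sost, Dmp1, Pecam1 and Cdh5. One further marker is not reported here. Gm14207 and the genes named only in the closing section were chosen after their values were seen. The plasma cell marker Jchain was not found under that symbol, and Cr2 has more than 1 row. P-values measure the spread between these mice.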

Additional observations from a re-analysis of the deposited data

Results flagged for a closer look

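Of 52 sets of 5 libraries tested with Dixon's test at a critical value of 0.71, 4 held a library far from the others, where chance gives about 2.6. Dll4 was at 22.2 CPM in No MM 3, against 11.2 to 13.6 CPM in the other No MM libraries. The Notch target Heyl was at 11.97 CPM in No MM 4, against 20.3 to 20.9 CPM in the others. Lfng was at 73.4 CPM in MM 8, against 44.2 to 50.3 CPM in the other MM libraries. Notch2 made up 59.1% of the receptor level per length in MM 8, against 39.3% to 44.4% in the others. MM 8 had the lowest MM values of the other 3 receptors. Its receptor sum was also the lowest of MM, at 21.99 CPM per kb against 25.6 to 28.3 CPM per kb in the other MM libraries. Its Notch2 level of 137 CPM was the highest of the 10 libraries, next to 132 CPM in MM 10.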

How the results depend on the processing

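Of 180 values of the 10 Notch genes under 18 alternatives, 170 kept their direction and their side of the threshold, 10 changed sign and none passed adjustment (lowest adjusted p 0.100, edgeR). Without No MM 3 and No MM 4, Notch3 was at -0.147 and Dll1 at 0.104 (log2), and with 1 surrogate variable they were at -0.0903 and 0.0812. Leaving out 1 mouse gave -0.0821 to 0.273 for Notch3, with values under 0 at -0.0356 without No MM 4 and -0.0821 without MM 9. Dll1 ranged from -0.258 to 0.0129, the latter without No MM 4. Hey1 ranged from -0.283 to 0.0656 and was above 0 without No MM 5 (0.0413), MM 7 (0.0656) or MM 8 (0.0442). Nrarp ranged from -0.206 to 0.0994 and was above 0 without MM 8.

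Over all genes, DESeq2 called 207 genes after adjustment and 968 higher before it. A 2-fold threshold left 225 higher and 639 lower. Without No MM 3 and No MM 4, 560 were lower, and with 1 surrogate variable 857. Leaving out 1 mouse gave 291 to 1276 higher and 939 to 2376 lower. Notch genes with an unadjusted p under 0.05 numbered 0 without No MM 3 and No MM 4, and 0 to 3 with 1 mouse left out: 0 without any 1 of No MM 1, 3 and 4 and MM 7 and 10, 2 without No MM 5 and 3 without MM 6. Over all genes, 1276 were higher and 2376 lower of 16353 without No MM 5, and 853 and 1740 of 16364 without MM 6. Pathway genes numbered 1 higher by DESeq2, 1 higher and 1 lower without No MM 3 and No MM 4, 2 higher and 1 lower with the surrogate variable, and 0 to 2 higher and 1 to 6 lower with 1 mouse left out. The 6 lower were found without No MM 2, where 2120 of 16375 genes were lower, and the 2 higher without No MM 5. With the surrogate variable, 692 of 16186 genes were higher. The causes were not tested. Scaling moved the median of all genes by under 0.1. No paired analysis was possible because the labels share no mouse number between the groups. With 5 mice a group and libraries this unlike within a group, the standard errors of 0.18 to 0.33 for the 10 genes limit which log2 changes could be called.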

Other observations

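Without No MM 3 and No MM 4, the pathway genes with an unadjusted p under 0.05 were Maml2, a Mastermind coactivator, and Ccnd1, which encodes cyclin D1, that is 2 of 59 where 5.89% of 16600 genes were called. Maml2 was at 8.22, 10.4 and 10.5 CPM in No MM 1, 2 and 5 and at 11.8 to 14.5 CPM in MM (log2 fold change 0.39, unadjusted p = 0.0471, adjusted p = 0.643, edgeR). In No MM 3 it was at 13.5 CPM, inside the MM range. In No MM 4 it was at 14.54 CPM, just above the highest MM value of 14.48 CPM. Ccnd1 was at 181, 93.1 and 211 CPM in No MM 1, 2 and 5 and at 58.8 to 155 CPM in MM (log2 fold change -0.78, unadjusted p = 0.0460, adjusted p = 0.643, edgeR), and at 37.8 and 25.7 CPM in No MM 3 and No MM 4. Mib1, a ubiquitin ligase that lets ligands be taken up, was at 190.3 and 167.8 CPM in No MM 3 and No MM 4 and at 23.4 to 70.4 CPM in the other 8 libraries. Ncstn, a gamma-secretase subunit, was at 188 and 165 CPM in those libraries and at 76.5 to 93.9 CPM in the others.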
